A study of Homo sapiens with 6 samples.

Results

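Accessible chromatin on the short arm of chromosome 5 (5p) was described in U937 cells, an established human monocytic line, by ATAC-seq, an assay that tags DNA wherever a transposase can reach it. The members were all peak intervals on chromosome 5 that begin below 40 Mb (GRCh38), 342 of the 41450 intervals listed on chromosomes 1-22, X and Y over 6 libraries. In all counts 5p stands for this part. The rest of chromosome 5 begins at 40 Mb and so also holds the last part of the short arm. The libraries came from 3 independent ΔNSPs clones, depleted together of the neutrophil serine proteases CTSG, ELANE and PRTN3, and from 3 control lines that carried control plasmids. Each clone is a separate line and each library stands for 1 line. All cells were selected with geneticin, treated with DNase, washed and frozen in a medium with DMSO before the assay, so both groups share these steps. The 40-Mb boundary was chosen by the number of intervals along chromosome 5 in these same lists, in which clone 3 had stood out. Peak counts of 5p in the clones, in their relation to each other and to the rest of chromosome 5, are therefore given as descriptions without a test.

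The human 5p is known for a gene-rich tip that carries TERT, the catalytic subunit of telomerase, and SDHA, a subunit of respiratory complex II. Its middle holds a long gene-poor stretch in which the classical cadherin genes CDH18, CDH12, CDH10, CDH9 and CDH6 are spread far apart. Genes with housekeeping roles follow towards the centromere, among them SKP2, which marks cell cycle inhibitors for destruction, and NIPBL, which loads cohesin onto DNA. Promoters of broadly expressed genes are usually open in dividing cells, while gene-poor stretches usually carry few open sites.

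Sequences at shared promoter peaks are shown first, since they are where the clones had the same 5p sites open. Each is the 250 bases before the annotated gene start (RefSeq, GRCh38.p14), written 5′ to 3′ on the strand of the gene, with capitals for the bases inside the peaks of every clone that had a peak there. SKP2 lies on the plus strand (chr5:36151861-36152110), and 182 of its bases were inside the peaks of all 3 clones. MTMR12, a myotubularin-related protein, lies on the minus strand (chr5:32312940-32313189), with 38 bases shared by all 3 clones. BRIX1, a factor of ribosome assembly, lies on the plus strand (chr5:34915461-34915710), with 115 bases shared by all 3. PDCD6, a calcium-binding protein of membrane trafficking, lies on the plus strand (chr5:271396-271645), with 203 bases shared by clones 1 and 3. WDR70, a WD repeat protein, lies on the plus strand (chr5:37379068-37379317), with 98 bases shared by clones 2 and 3.
SKP2: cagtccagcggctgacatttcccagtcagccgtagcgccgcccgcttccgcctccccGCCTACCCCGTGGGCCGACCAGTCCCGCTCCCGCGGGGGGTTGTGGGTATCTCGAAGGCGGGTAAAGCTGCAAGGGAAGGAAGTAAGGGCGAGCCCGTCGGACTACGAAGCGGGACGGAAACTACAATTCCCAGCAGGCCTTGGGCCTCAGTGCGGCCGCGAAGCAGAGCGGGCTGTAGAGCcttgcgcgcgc
MTMR12: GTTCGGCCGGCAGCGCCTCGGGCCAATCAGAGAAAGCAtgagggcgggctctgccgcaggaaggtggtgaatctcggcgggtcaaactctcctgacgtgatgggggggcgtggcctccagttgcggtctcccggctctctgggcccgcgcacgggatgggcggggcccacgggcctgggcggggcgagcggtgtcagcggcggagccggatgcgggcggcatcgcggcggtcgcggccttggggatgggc
BRIX1: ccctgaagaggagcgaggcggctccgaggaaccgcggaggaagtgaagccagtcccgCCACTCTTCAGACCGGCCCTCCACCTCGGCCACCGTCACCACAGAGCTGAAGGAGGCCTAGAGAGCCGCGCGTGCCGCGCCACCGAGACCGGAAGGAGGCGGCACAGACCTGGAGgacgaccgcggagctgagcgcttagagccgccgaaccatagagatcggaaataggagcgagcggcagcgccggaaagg
PDCD6: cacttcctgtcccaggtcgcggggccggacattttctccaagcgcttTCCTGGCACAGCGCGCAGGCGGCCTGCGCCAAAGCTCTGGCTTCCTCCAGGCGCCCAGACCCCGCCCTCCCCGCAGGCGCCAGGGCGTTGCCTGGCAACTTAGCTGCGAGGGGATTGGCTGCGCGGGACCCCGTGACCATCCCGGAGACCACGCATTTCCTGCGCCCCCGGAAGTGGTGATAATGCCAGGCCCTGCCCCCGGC
WDR70: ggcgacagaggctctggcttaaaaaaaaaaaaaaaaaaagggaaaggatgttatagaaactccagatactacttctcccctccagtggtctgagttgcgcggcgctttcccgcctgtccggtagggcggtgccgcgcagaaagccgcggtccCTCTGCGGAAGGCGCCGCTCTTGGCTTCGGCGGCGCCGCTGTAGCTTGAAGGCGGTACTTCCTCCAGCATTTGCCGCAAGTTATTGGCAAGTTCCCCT

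The G and C share was 67.6% in SKP2, 73.6% in MTMR12, 67.6% in BRIX1, 69.6% in PDCD6 and 56.8% in WDR70. The median was 68.6% over the 14 windows of 5p with a peak in at least 2 clones. It was 66% over all 113 windows of 5p and 62.4% over all 15812 protein-coding windows. The letters GGGCGG, known as the GC box, were found on either strand in the windows of SKP2, MTMR12, PDCD6 and WDR70. They were found in 64.3% of the 14 windows, 61.1% of the 5p windows and 56.0% of all windows of this length. CCAAT was found in those of MTMR12, PDCD6 and WDR70. Its share was 28.6% of the 14 windows, 31.0% of the 5p windows and 34.4% of all windows. The windows shown were chosen after their values were seen, so nothing is read from their motif counts. The longer CCGGAAGT, an ETS-type motif, was found in that of PDCD6 and in 5.09% of all windows. GAGGAAGT, the core of the PU.1 motif, was found in those of BRIX1 and WDR70 and in 336 of the 15812 windows. In BRIX1 it lay outside the shared bases, and in WDR70 it lay inside them, on the opposite strand. All motifs were searched on both strands, and the GAGGAAGT and CCGGAAGT motifs share the letters GGAAGT. A match describes the letters and not binding.

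Clones 1, 2 and 3 had 79, 176 and 87 intervals on 5p, and control lines 1, 2 and 3 had none. The mean was 114 ± 53.8 intervals in the clones against 0 ± 0 in the control lines (SD, n = 3 each), a difference of 2.03 on the log10(intervals + 1) scale. With every control count at 0, the exact two-sided permutation test over 20 assignments had to return p = 0.1, its smallest value, and nothing is read from it. The control lists were short on every chromosome, with 13, 4 and 2 intervals in all on chromosomes 1-22, X and Y against 14262, 24981 and 2188 in clones 1, 2 and 3. The absence of control intervals was therefore not particular to 5p. A list holds no value at a site without a peak, and read totals were not known, so no floor could be given for a site without one. Of 12 monocytic marker genes 4, 6 and 1 had a peak within 1000 bp of a gene end in clones 1, 2 and 3. CEBPA, CEBPB, CD33, ITGAM, CD68, CSF1R, CD14 and CD4 had one in at least 1 clone. SPI1, LYZ, MPO and FCGR1A had none in any library. Of all protein-coding genes 39.1%, 29.6% and 6.55% had such a peak in clones 1, 2 and 3. The marker counts are too few beside these shares to check the cell type. Of 5 B cell markers clones 1 and 2 had a peak at 1 each, among CD79A and EBF1, and clone 3 had none. Of 5 T cell markers CD3E had one in clones 1 and 2, of 4 erythroid markers KLF1 had one in all 3 clones, and no epithelial or fibroblast marker had one. Of the 3 depleted genes, CTSG had a gene-end peak in clone 2, while ELANE and PRTN3 had none in any library, and ATAC-seq does not measure the depletion.

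Clone 3 carried most of its chromosome 5 intervals on 5p, unlike clones 1 and 2. The share was 68.0% of 128 intervals in clone 3 (95% interval 59.15 to 75.9, by the exact Clopper-Pearson method, for counting error alone). In clone 1 it was 14.1% of 559 (11.35 to 17.3) and in clone 2 it was 19.0% of 926 (16.5 to 21.7). The arm was chosen on these same counts, so nothing is read from whether these 95% ranges overlap. As a share of the whole list, 5p held 3.98% in clone 3, 0.554% in clone 1 and 0.705% in clone 2. The rest of chromosome 5 held 1.87% of the list in clone 3, 3.37% in clone 1 and 3.00% in clone 2. Clone 3 thus stood high on 5p and low on the rest of chromosome 5. The whole list of clone 3 was the shortest of the clones' lists, but it had more intervals on 5p than clone 1, 87 against 79.

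**Figure D1:**
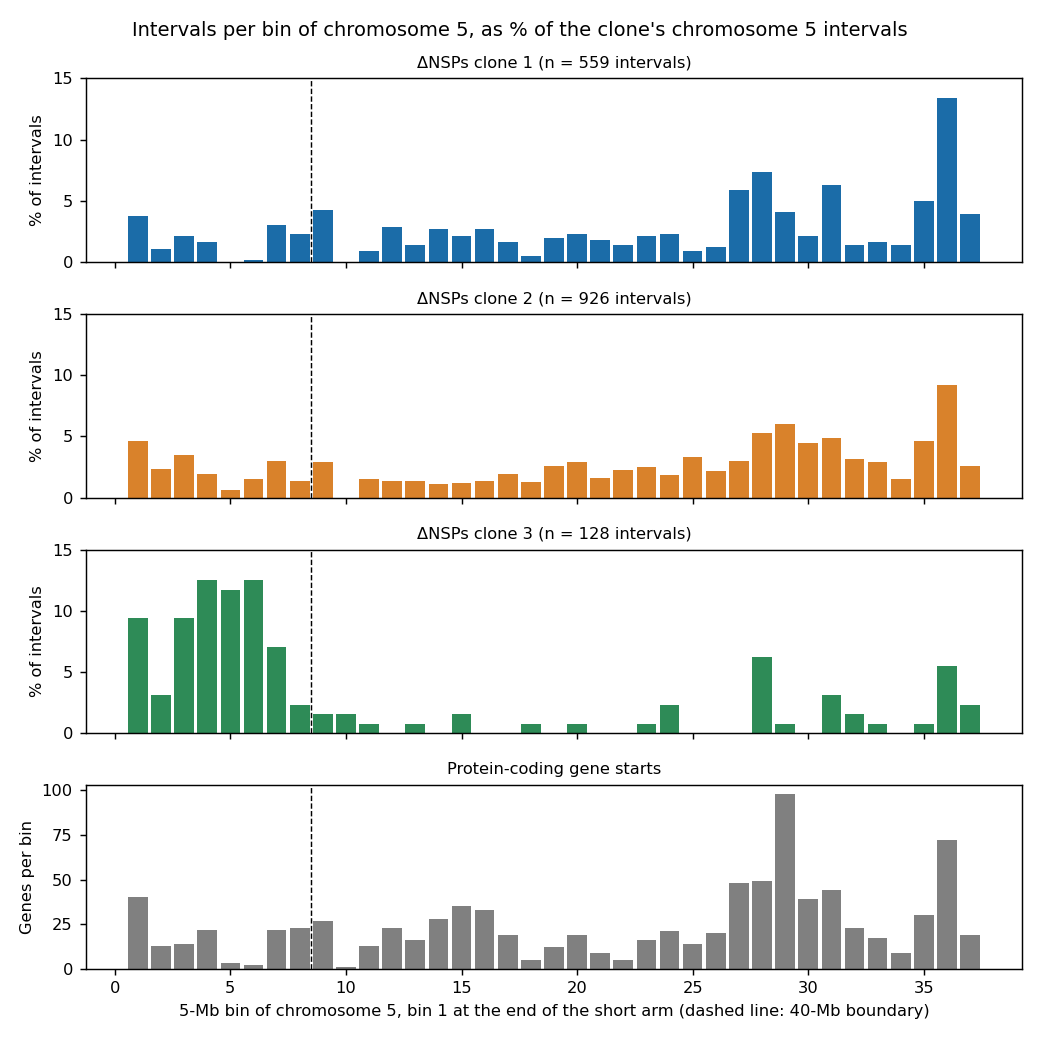
Share of each clone's chromosome 5 intervals in every 5-Mb bin (y axis, %) along the chromosome (x axis, bin number), for ΔNSPs clones 1, 2 and 3, with the number of protein-coding gene starts per bin in the bottom panel. Bins 4 to 6 hold 36.7% of the intervals in clone 3 and 1.79% and 4.10% in clones 1 and 2, and these bins hold 22, 3 and 2 gene starts.

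Within 5p the bins with most clone 3 intervals lay in the middle of the arm. The bins from 15 to 30 Mb, chosen after their values were seen, held 47 intervals in clone 3, 10 in clone 1 and 38 in clone 2. In the bin from 15 to 20 Mb, with 22 protein-coding gene starts, clones 1, 2 and 3 had 9, 18 and 16 intervals. In the bin from 20 to 25 Mb clones 1, 2 and 3 had 0, 6 and 15 intervals, and in that from 25 to 30 Mb they had 1, 14 and 16. The last 2 bins hold 3 and 2 gene starts, against 40 in the bin at the tip, where clones 1, 2 and 3 had 21, 43 and 12 intervals. The fullest bin of clones 1 and 2 was that at the tip, while the 3 fullest of clone 3 were a bin with 22 gene starts and the 2 sparse ones. The intervals of clone 3 from 15 to 30 Mb were spaced by a median of 245 kb, with gaps between 7.43 and 928 kb, and were not a single cluster.

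Over the genome such bins were few. Of 598 bins of 5 Mb with an interval in any clone, 14 had more clone 3 than clone 1 intervals, 3 of them on 5p. Among these 14, 5 had at least 10 clone 3 intervals, and 3 of the 5 were the bins of chromosome 5 from 15 to 30 Mb. The others lay on chromosome 1, from 215 Mb (49 intervals in clone 3, 0 in clone 1 and 182 in clone 2) and from 235 Mb (19, 16 and 151). Clone 3 outnumbered clone 2 in 4 bins, of which 2 were on 5p. The arm was chosen on these same counts, so nothing is read from its place among the bins.

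The last 5p interval of clone 3 lay at 37379220 to 37379341, at the start of WDR70, with a fold enrichment of 4.51 (the authors' peak caller's ratio of reads at the summit to the local background). The next beyond the boundary lay at 40487028 to 40487183 with a fold of 3.39. In clone 1 the intervals on either side of the boundary had folds of 3.94 (39270376 to 39270594, in FYB1) and 3.44, and in clone 2 folds of 3.96 (38453656 to 38453736, in EGFLAM) and 7.74. The nearest gene outside was PTGER4, a prostaglandin receptor, in all 3 clones.

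The intervals of clone 3 on 5p had low pile-ups and a low local background. Their median width was 148 bp, against 157 bp on the rest of chromosome 5, and it was 215 bp against 233 bp in clone 1 and 92 bp against 95 bp in clone 2. From the deposited fold and p-value of each interval the read pile-up at the summit and the local background were solved, in reads. The median background on 5p was 1.98 reads in clone 3, against 4.31 reads on the rest of chromosome 5. In clone 1 it was 5.26 reads on 5p and 4.97 reads on the rest, and in clone 2 it was 2.76 reads on 5p and 3.155 reads on the rest. The ratio of 5p to the rest was 0.458 in clone 3, 1.06 in clone 1 and 0.875 in clone 2. Where only intervals reaching a −log10 q of 5 were kept, the ratio was 0.702 in clone 3, 1.08 in clone 1 and 0.76 in clone 2, so that clones 2 and 3 then lay close together. With the clone lists cut to equal length it was 0.458 in clone 3, 1.77 in clone 1 and 0.6835 in clone 2.

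The median pile-up on 5p in clone 3 was 13 reads, against 21 on the rest of chromosome 5. It was 21 reads on both in clone 1, and 16 on 5p against 17 on the rest in clone 2. The median fold on 5p was 4.51 in clone 3, against 3.625 on the rest. It was 3.32 against 3.58 in clone 1 and 4.26 against 4.18 in clone 2. The 5p intervals of clone 3 therefore had fewer reads and yet higher folds than those on the rest of the chromosome. Fold has the background in its denominator, so the 2 readouts are not independent.

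**Figure D2:**
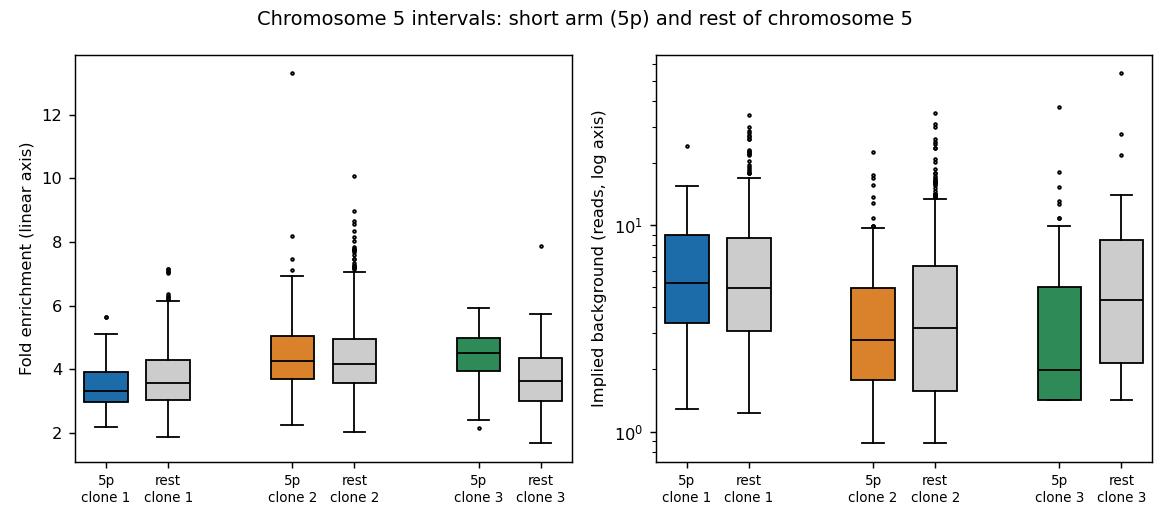
Fold enrichment (left, linear y axis) and implied background in reads (right, log y axis) of the intervals on 5p (coloured) and on the rest of chromosome 5 (grey) in ΔNSPs clones 1, 2 and 3. Lines in the boxes are medians, boxes span the quartiles, whiskers reach 1.5 times that span and points lie beyond; the clone 3 median background is 1.98 reads on 5p and 4.31 on the rest.

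Many of the clone 3 intervals sat at the lowest background of the list. That floor was 1.415 reads in clone 3, and 21 of its 87 intervals on 5p were at it, against 3 of 41 on the rest of chromosome 5. Over the whole chromosome 24 of 128 were at the floor in clone 3, against 10 of 342 on chromosome 1 and 5 of 67 on chromosome 21. In clone 1 no 5p interval was at its floor of 1.22 reads, and in clone 2 14 of 176 were at its floor of 0.878 reads. An implied background under 2 reads was found for 54.0% of the clone 3 intervals on 5p, against 11.9% of its whole list. In clone 1 it was found for 3 of 79 intervals on 5p, against 6.32% of its list, and in clone 2 for 35.2%, against 29.1%. With these intervals left out, a choice made after seeing the data, the 5p share of chromosome 5 intervals in clone 3 was 56.3%. DNA copy number and read totals were not known, and their part in the clone 3 pattern was not tested.

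The intervals of clone 3 on 5p were mostly its own. Of its 87 intervals 63 (72.4%) overlapped no interval of another clone by at least 1 bp, against 11 of 41 (26.8%) on the rest of chromosome 5. Clone 1 had 46 of 79 (58.2%) of its own on 5p, against 61.9% on the rest, and clone 2 had 140 of 176 (79.5%), against 73.5% on the rest. Over the whole lists the shares found in no other clone were 20.4% in clone 3, 53.5% in clone 1 and 71.5% in clone 2. Of the clone 3 intervals on 5p, 17 (19.5%) overlapped clone 1 and 20 of 87 overlapped clone 2. On the rest of chromosome 5 these shares of the clone 3 list were 56.1% and 58.5%, and over its whole list 67.9% and 65.9%. From the other side, 17 of the 79 clone 1 intervals on 5p (21.5%) and 20 of the 176 of clone 2 (11.4%) overlapped clone 3. Over the whole lists these were 10.35% in clone 1 and 6.11% in clone 2. Clones 1 and 2 shared 28 intervals on 5p, which were 35.4% of the clone 1 list there and 15.9% of the clone 2 list there. Over the whole lists these shares were 44.9% and 27.45%.

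Own and shared intervals differed in read support. In clone 3 the 63 found in no other clone had pile-ups of 10 to 31 reads, with a median of 12, and the 24 found in another clone had 13 to 82, with a median of 27.5. Pile-ups of at most 16 reads made up 59 of the 63 and 1 of the 24. In clone 1 the medians were 18 reads for intervals of its own and 27 for shared ones, and in clone 2 they were 14 and 28. The higher pile-up of shared intervals was thus seen within each clone's own list.

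**Figure D3:**
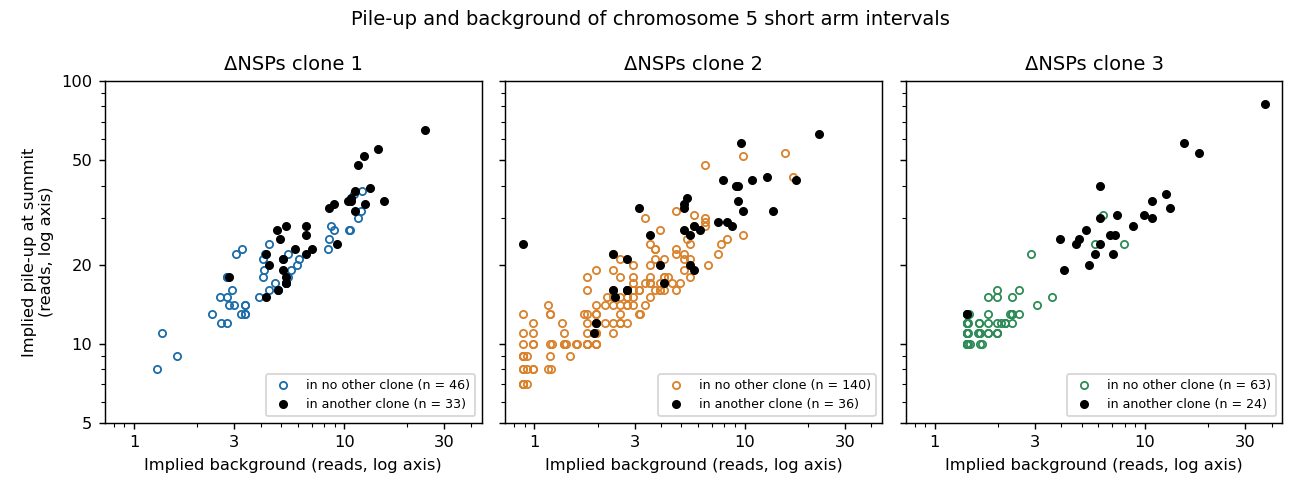
Implied pile-up at the summit (y axis, reads, log) against implied local background (x axis, reads, log) of the 5p intervals of ΔNSPs clones 1, 2 and 3, with open circles for intervals found in no other clone and filled ones for those found in another. The 63 open circles of clone 3 have a median pile-up of 12 reads and its 24 filled circles one of 27.5.

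The clones also differed in where on 5p their intervals lay. Summits within 1000 bp of an end of a RefSeq protein-coding or lncRNA gene made up 13.8% of the 5p intervals in clone 3, 45 of 79 in clone 1 and 18.75% in clone 2. Summits outside these genes made up 50.6% in clone 3, 17.7% in clone 1 and 27.8% in clone 2. On the rest of chromosome 5, 43.9% of the clone 3 summits were at a gene end and 21.95% outside genes, so clone 3 differed there from its own 5p list. The median distance from the summit to the nearest end of a protein-coding gene was 142 kb on 5p in clone 3, against 4.02 kb on the rest. It was 1.16 kb against 0.8475 kb in clone 1 and 28.6 kb against 15.7 kb in clone 2. Clone 1 was the library whose 5p list was mainly one of gene ends, and clone 2 the one with most summits inside gene bodies (53.4%).

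**Figure D4:**
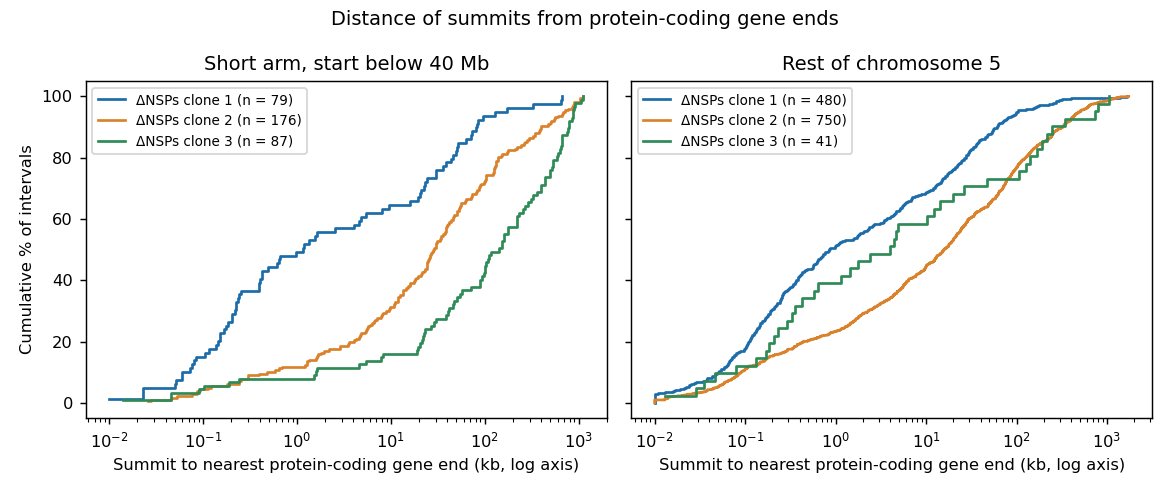
Cumulative share of intervals (y axis, %) against the distance from the summit to the nearest end of a protein-coding gene (x axis, kb, log) on 5p (left) and on the rest of chromosome 5 (right) in ΔNSPs clones 1, 2 and 3. On 5p the clone 3 line lies to the right, with a median of 142 kb, against 28.6 kb in clone 2 and 1.16 kb in clone 1.

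The 47 clone 3 intervals from 15 to 30 Mb were largely of this kind. Of these, 30 lay outside genes, 16 in gene bodies and 1 at a gene end, and 45 were found in no other clone. Their pile-ups were 10 to 24 reads and their folds 3.70 to 5.94, with a median fold of 4.56. For the role lists, summits were counted anywhere from gene start to gene end, so those near an end are included. The 8 genes listed for cadherins and neuronal adhesion, which join neurons and other cells, held 12 in clone 3, 1 in clone 1 and 10 in clone 2. That of clone 1, in SEMA5A, lay within 1000 bp of the gene end. CDH12, a classical cadherin, held 4 in clone 3, with folds of 3.90 to 5.77, and none in clones 1 and 2. CDH18, its neighbour towards the tip, held 3 in clone 3, 0 in clone 1 and 1 in clone 2. CTNND2, the neuronal delta-catenin, held 1 in clone 3, 0 in clone 1 and 5 in clone 2. These genes are long, and no density per length was tested. Counted in the same way, the list for RNA processing, translation and protein folding held 0 summits in clone 3, 6 in clone 1 and 4 in clone 2. All those of clone 1, and those of clone 2 except the one in NSUN2, lay within 1000 bp of a gene end.

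Merged over the 6 lists, 5p held 289 regions, of which 40 (13.8%) were open in 2 or 3 clones but in no control. Of all 32822 regions 20.9% met that rule, and on the rest of chromosome 5 it was 189 of 1049. Without clone 1 the count was 20 and without clone 2 it was 17. A peak in all 3 clones was found for 13 regions (4.50%), against 3.82% of all regions and 1.72% on the rest of chromosome 5. A peak in clone 3 alone was found for 63 (21.8%), against 1.36% of all regions and 0.953% on the rest of chromosome 5. The share of 3-clone regions on 5p lay near that of all regions and above that of the rest of chromosome 5. The share of regions with clone 3 alone lay above both. Since the arm was chosen for its clone 3 intervals, nothing is read from these differences.

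Of the 13 regions of all 3 clones 4 lay at an end of a protein-coding gene, 5 in the body of one and 4 outside. The region 4.48 kb from CLPTM1L, a membrane protein gene next to TERT, spanned chr5:1313048-1313489. Its pile-up was 28, 33 and 40 reads and its fold 4.63, 8.18 and 5.77 in clones 1, 2 and 3. In clone 3 it ranked 14 of the 2188 intervals by −log10 q, ahead of the other 5p intervals. In the body of AHRR, the repressor of the aryl hydrocarbon receptor, regions lay at chr5:392535-392824 and chr5:399822-400152. The folds in clones 1, 2 and 3 were 3.13, 5.85 and 2.80 at the first and 3.59, 5.93 and 2.94 at the second. The other gene bodies were those of ANKRD33B, of BASP1, a membrane-bound protein of growth cones, and of SLC1A3, a glutamate transporter. At BASP1 the folds were 4.946, 4.115 and 3.90, and at SLC1A3 they were 2.69, 3.23 and 2.41.

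Among the 139 protein-coding genes of 5p, 39 (28.1%) had a gene-end peak in clone 1, 24 (17.3%) in clone 2 and 9 (6.47%) in clone 3. Over all 19970 protein-coding genes of chromosomes 1-22 and X the shares were 39.1%, 29.6% and 6.55%. On the rest of chromosome 5 they were 37.0%, 24.6% and 2.23%. For clone 3 the share of 5p genes was thus about that of all genes, while its share of intervals was not. The clone 3 share of 5p genes was above that of the rest of chromosome 5. Since the arm was chosen for its clone 3 intervals, nothing is read from this. In 2 or 3 clones, with none in a control, 21 genes (15.1%) had one, against 23.3% of all genes and 17.7% on the rest of chromosome 5. Without clone 1 this count was 7 and without clone 2 it was 8. In all 3 clones 6 genes (4.32%) had one, against 5.40% of all and 1.70% on the rest of chromosome 5. A further 24 genes had one in a single clone, 19 of them in clone 1, 5 in clone 2 and 0 in clone 3, and 94 had none. Of the genes with a known strand, 32, 20 and 8 in clones 1, 2 and 3 had their peak of highest −log10 q at the 5′ end and 0 at the 3′ end. Weaker peaks of the same gene were not counted. One of these, in clone 2, lay past the 3′ end of PRDM9 (chr5:23528643-23528709). In the RefSeq promoter window, from 250 bp before to 50 bp after the start, 15 of 113 genes (13.3%) had a peak in at least 2 clones, against 19.0% of all windows, and 5 had one in all 3, against 4.12% of all windows.

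The 6 genes open at an end in all 3 clones were SKP2, LMBRD2, RAD1, BRIX1, MTMR12 and MARCHF6. SKP2 and LMBRD2, a membrane protein gene that starts beside it, shared 1 peak. Its pile-up was 52, 40 and 58 reads over a background of 12.4, 9.27 and 15.3 reads in clones 1, 2 and 3. Its folds were 3.95, 3.99 and 3.63, close to each other. RAD1, a subunit of the DNA damage clamp, and BRIX1 also shared 1 peak, with pile-ups of 39, 35 and 20 reads and folds of 2.80, 3.51 and 3.29. MTMR12 had the deepest pile-ups of the 6, at 65, 63 and 82 reads, and low folds of 2.63, 2.70 and 2.16. MARCHF6, a ubiquitin ligase of the endoplasmic reticulum, had pile-ups of 19, 29 and 22 reads and folds of 3.27, 3.53 and 2.87. A peak between a pair of genes cannot be given to either of them.

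**Figure D5:**
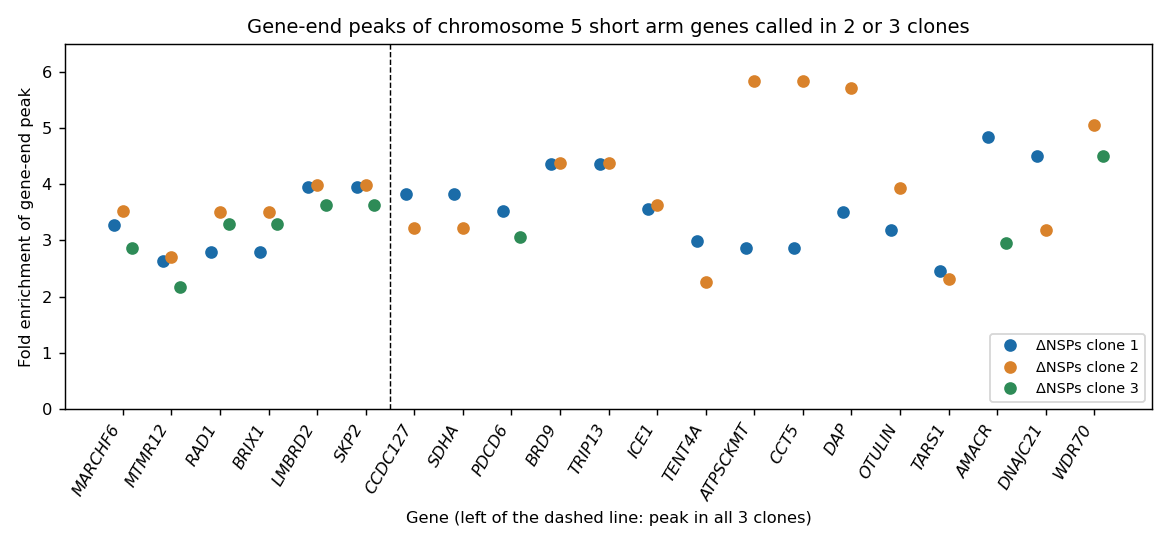
Fold enrichment of the gene-end peak (y axis, linear) of the 21 protein-coding genes of 5p called in at least 2 clones (x axis), with 1 point for each of ΔNSPs clones 1, 2 and 3 that had a peak there. The 6 genes left of the dashed line had a peak in all 3 clones, with folds between 2.16 (MTMR12, clone 3) and 3.99 (SKP2, clone 2).

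By role, 5 of 8 genes of genome maintenance and the cell cycle (62.5%) had a gene-end peak in 2 or 3 clones. These were RAD1, SKP2, BRD9 (a bromodomain subunit of a chromatin remodeller), TRIP13 (an ATPase of the spindle checkpoint) and TENT4A (a nucleotidyltransferase). BRD9 and TRIP13 shared 1 peak with folds of 4.35 in clone 1 and 4.37 in clone 2. TERT, NIPBL and CEP72 had one in a single clone. At TERT it was in clone 1, with a fold of 3.05 and a pile-up of 19 reads, while clone 2 had 5 summits in the gene body. So did 6 of 11 genes of RNA processing, translation and protein folding (54.55%). Besides BRIX1 and MARCHF6 these were ICE1, CCT5 (a chaperonin subunit), TARS1 (a threonyl-tRNA synthetase) and DNAJC21. At CCT5 the folds were 2.87 in clone 1 and 5.85 in clone 2, and at TARS1 2.45 and 2.32. DROSHA, the nuclease that starts miRNA processing, and NUP155 had none.

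Of 14 genes of trafficking and intracellular signalling 4 did, MTMR12, LMBRD2, PDCD6 and DAP. At PDCD6 the folds were 3.53 in clone 1 and 3.06 in clone 3, and at DAP 3.50 in clone 1 and 5.71 in clone 2. Of 11 mitochondrial and metabolic enzymes 2 did. SDHA had folds of 3.83 in clone 1 and 3.22 in clone 2, and AMACR, a racemase of branched fatty acids, 4.84 in clone 1 and 2.96 in clone 3. No gene of the other 4 lists had one in at least 2 clones. These were 7 cytokine receptor and immune genes, among them IL7R, LIFR and OSMR, 8 cadherin and adhesion genes, 3 Iroquois homeobox genes and 7 solute carriers. SEMA5A and SLC12A7 had one in a single clone. Of the 70 genes in no list, 4 had one in at least 2 clones, CCDC127, ATPSCKMT, OTULIN and WDR70. The peaks of CCDC127 and ATPSCKMT were the same ones as those of SDHA and CCT5. All lists were chosen with earlier results of these data known, and their shares stand beside 23.3% of all protein-coding genes.

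The 5p intervals of highest fold differed between the clones. In clone 1 they were at NSUN2, an RNA methyltransferase (fold 5.65, pile-up 23 reads), 19.55 kb from GOLPH3 (5.65) and at NADK2, the mitochondrial NAD kinase (5.10). The interval at NSUN2 also covers the start of SRD5A1 and cannot be given to either gene. In clone 2 the first was 2342 bp wide, at chr5:17586397-17588738 in a tandem array of TAF11L genes, with a fold of 13.3 and a pile-up of 24 reads over 0.878. The same array held a clone 3 interval of 1179 bp with a fold of 5.80. Near-identical copies can share reads, so the reads there cannot be placed with certainty. The others of clone 2 were 4.625 kb from CLPTM1L, outside genes (fold 8.18), and in RANBP3L (fold 7.46, pile-up 13 reads). In clone 3 the highest was in RETREG1, a receptor for turnover of the endoplasmic reticulum (fold 5.94, pile-up 22 reads), and 4 intervals tied behind it at 5.80. These were the one in the TAF11L array, one 104 kb from DNAH5, and those that start at 25562488 and 28256416.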

How the data were processed

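ATAC-seq peak lists of 3 ΔNSPs clones and 3 control lines of U937 cells were used as the authors deposited them, 1 list per library. Per the submitters' processing notes the tools were FastQC, Bowtie2, Picard and MACS2 with GRCh38. For versions, roles, settings and read shifting, no statement was given in the sources used here. The deposited columns are a fold (ratio to local background), −log10 of the p-value, −log10 of the q-value and an integer score per peak. Peaks of 1 interval with several summits were collapsed to the summit of highest −log10 q. Pile-up and background were solved from fold and p under MACS2's Poisson model with 1 added to both, which gave whole pile-ups for 100% of intervals (tolerance 0.001 in log10 p). The method was checked on simulated data. Depth is known only through these implied values, and confidence intervals (95%) cover counting error only.

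Lists were merged where they overlapped by 1 bp. Genes, gene ends (1000 bp) and promoters came from RefSeq (GRCh38.p14), and 113 of the 139 genes matched a promoter sequence. Libraries were compared by an exact two-sided permutation test. The labels call the clones independent and the controls separate lines. With no control interval on 5p the p was fixed in advance, so it measures no spread between these lines. Genes named were those open at an end in all 3 clones, the members of the role lists, and the 3 intervals of highest fold per clone with the nearest gene. ANKRD33B, CLPTM1L, AHRR and BASP1 regions, the 15 to 30 Mb stretch and the sequences shown were chosen after their values were seen. The members and lists were chosen with earlier results of these data known. Alternatives were thresholds on −log10 q and fold, equally long lists, other boundaries, windows and overlaps, and leaving out each library. Python 3.11.15, pandas 2.3.3, NumPy 2.4.6, SciPy 1.17.1 and matplotlib 3.10.9 were used.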

Additional observations from a re-analysis of the deposited data

How the results depend on the processing

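Since every control count on 5p was 0, the exact permutation test of the interval counts returned its smallest value in each setting, which shows nothing about stability. The difference was 1.25 to 2.10 on the log10 scale, and with the replicate number as a block it was 2.03, with p = 0.25 as the smallest the exact sign test over 8 assignments allows. For the same reason, whether the numbers pair the lines could not be checked. The 5p share of chromosome 5 intervals moved with the boundary. Below 30 Mb it was 58.6% in clone 3, 8.77% in clone 1 and 14.6% in clone 2, and below 48 Mb 18.4% in clone 1 and 21.9% in clone 2. At a fold of 5 or more it was 81.8% in clone 3 and 7.81% in clone 1. With lists cut to 2188 intervals it was 7.69% in clone 1 and 16.4% in clone 2, and the ratio of 5p to rest background was 1.77 in clone 1 and 0.6835 in clone 2. At a −log10 q of 5 or more that ratio was 0.702 in clone 3 and 0.76 in clone 2. Without intervals of a background below 2 reads the 5p share of chromosome 5 intervals was 56.3% in clone 3. In no setting was the clone 3 share under that of clones 1 or 2. The boundary was chosen on these same lists because clone 3 stood out, so this order shows nothing about stability. Regions in at least 2 clones (40) were 15 at a −log10 q of 5 or more, 3 at a fold of 5 or more, 5 with equally long lists, 13 for all 3 clones, and 17 to 40 with 1 library left out. Genes (21) were 8, 0, 2 and 6 under the same settings and 7 to 21 with 1 library left out. Fewer intervals enter under the thresholds and shorter lists, and the cause of the other shifts was not tested. The 6 named genes stayed in at least 2 clones in 19 of 30 combinations of gene and setting. Peak lists hold nothing below their threshold, so a site without a peak is not shown to be closed.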

Other observations

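Control line 1 had 1 interval on chromosome 5, chr5:49660110-49660333, with a fold of 5.91 and a pile-up of 18 reads, and it overlapped an interval of clone 3. Control line 2 had 1 at chr5:49658055-49658422, with a fold of 3.70 and a pile-up of 22 reads, and it overlapped no clone interval. Both lie beyond the 40-Mb boundary, outside genes.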
